A study of Mus musculus with 6 samples.

Results

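The endoplasmic reticulum (ER) chaperones and the genes of the unfolded protein response were examined in mouse liver with and without *Asgr1*, as a set of 34 genes. The set was chosen by gene symbol among the 55401 genes of the deposited table. It holds 13 chaperones and foldases of the ATF6/XBP1 branch, 5 sensors and transcription factors, 7 genes of ER-associated degradation (ERAD), 2 ER oxidases and 7 genes of the ATF4 branch. The genotype test covered the 10167 genes with a mean FPKM (counts per exonic length, scaled to the total of the library) of at least 1 over the 6 livers, and 33 of the 34 genes were among them. The exception was *Chac1*, at a mean FPKM of 0.647.

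RNA-Seq had been performed on livers of 3 WT and 3 *Asgr1*-/- mice, males on the C57/BL6 background at an age of 13 week, all fasted overnight, with 1 library for each mouse. The mice had a normal diet, and no other allele or drug is named for either group. *Asgr1* encodes the major subunit of the asialoglycoprotein receptor, a hepatocyte lectin that takes up desialylated glycoproteins from blood. The line was made with Cas9 and a pair of guide RNAs injected into zygotes, the founders were bred to mice of that background, and both genotypes were littermates from *Asgr1*+/- parents, so the gene was absent from every cell and from conception. The labels do not say which founder the mice descend from.

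Secretory proteins fold in the ER with the help of BiP, other chaperones and disulfide isomerases. When unfolded proteins accumulate, 3 ER membrane sensors respond: IRE1 (*Ern1*) splices *Xbp1* mRNA, ATF6 is cut to release a transcription factor, and PERK (*Eif2ak3*) phosphorylates eIF2α, which lowers general translation and favors translation of ATF4. XBP1 and ATF6 are known to drive chaperone and ERAD genes through the ER stress response element, whereas ATF4 drives amino acid synthesis genes, *Ddit3*, *Trib3* and *Chac1* and is shared with other stresses such as amino acid shortage. Hepatocytes secrete large amounts of plasma protein and hold much rough ER.

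The 2 branches were first compared by the sequence of their promoters. RefSeq promoter windows of GRCm38.p6, the build of the deposited table, run from 250 bases before to 50 bases after a transcript start and were found for 29 of the 34 genes, with *Ero1l* and *Ero1lb* listed as Ero1a and Ero1b. There was no window for *Manf*, *Hyou1*, *Atf6*, *Derl1* or *Ppp1r15b*. Exact matches to 4 elements were searched on both strands. These were the ER stress response element ERSE (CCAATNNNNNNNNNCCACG), its shorter form ERSE-II (ATTGGNCCACG), the core of the unfolded protein response element (TGACGTGG) and the C/EBP-ATF response element CARE (TGATGNAA) that ATF4 is known to bind. The bases CCACG stand in both forms of ERSE and, on the opposite strand, in the third motif. The matches of the first 2 elements are shown because most of them lie in chaperone or ERAD genes, with the fixed bases in capitals and the spacer in lower case, each read 5′ to 3′ on the strand that carries the match:
Hspa5, ERSE, chr2:34772025-34772043: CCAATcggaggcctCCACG
Hsp90b1, ERSE, chr10:86705638-86705656: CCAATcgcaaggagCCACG
Hsp90b1, ERSE, chr10:86705533-86705551: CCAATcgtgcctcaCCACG
Pdia6, ERSE, chr12:17266491-17266509: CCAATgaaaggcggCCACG
Dnajc3, ERSE, chr14:118937827-118937845: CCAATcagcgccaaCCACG
Creld2, ERSE, chr15:88819520-88819538: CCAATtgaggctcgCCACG
Dnajb11, ERSE-II, chr16:22857852-22857862: ATTGGcCCACG
Syvn1, ERSE, chr19:6046532-6046550: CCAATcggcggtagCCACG
Derl3, ERSE, chr10:75893242-75893260: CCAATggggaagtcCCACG
Herpud1, ERSE-II, chr8:94386377-94386387: ATTGGgCCACG
Ero1lb, ERSE, chr13:12565682-12565700: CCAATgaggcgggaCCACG

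An ERSE stood in the window of 5 of the 11 chaperone genes searched, 2 of the 6 ERAD genes, 1 of the 2 oxidases, 0 of the 4 sensors and 0 of the 6 ATF4 branch genes. Of all 32851 RefSeq windows of the same length, 39 (0.119%) held one. ERSE-II was found in 2 genes, *Dnajb11* and *Herpud1*, and in 0.0365% of all windows. The third motif was found in 0 of the 29 genes and 0.676% of all windows. These are matches of letters only, and the windows are short. The branch lists are named for factors known to act through these elements, so the shares describe the lists and test nothing. All of the ERSE matches lay before the RefSeq start, between 212 and 26 bases upstream, and the ERSE-II of *Dnajb11* lay 8 to 18 bases after the start. The ERSE of *Hspa5* was 65 to 47 bases before the start, inside the span that the deposited table gives for the gene (chr2:34771970-34777547, plus strand), which opens at an earlier base.

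CARE matches are shown for the ATF4 branch in the same way, with the variable base in lower case:
Asns, CARE, chr6:7693225-7693232: TGATGaAA
Chac1, CARE, chr2:119351049-119351056: TGATGcAA
Trib3, CARE, chr2:152344039-152344046: TGATGtAA
Herpud1, CARE, chr8:94386317-94386324: TGATGcAA

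They occurred in 3 of the 6 ATF4 branch genes searched, in *Herpud1*, in 0 of the 11 chaperone genes and in 3.97% of all windows, so a CARE match is far commoner by itself than an ERSE. The 250 bases before the RefSeq start are given for the gene of BiP, for *Creld2* and for *Asns*, whose values are described next, again with the matched bases in capitals. *Hspa5* (chr2:34771840-34772089, plus strand) and *Creld2* (chr15:88819396-88819645, plus strand) carry an ERSE each, that of *Creld2* on the strand opposite to the gene, and *Asns* (chr6:7693210-7693459, minus strand) carries a CARE. Each is written along the strand of the gene:
Hspa5 upstream: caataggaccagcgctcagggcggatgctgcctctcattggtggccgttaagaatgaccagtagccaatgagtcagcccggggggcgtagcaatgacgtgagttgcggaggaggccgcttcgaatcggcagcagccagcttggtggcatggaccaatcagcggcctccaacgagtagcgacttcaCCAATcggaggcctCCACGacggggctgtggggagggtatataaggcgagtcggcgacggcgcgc
Creld2 upstream: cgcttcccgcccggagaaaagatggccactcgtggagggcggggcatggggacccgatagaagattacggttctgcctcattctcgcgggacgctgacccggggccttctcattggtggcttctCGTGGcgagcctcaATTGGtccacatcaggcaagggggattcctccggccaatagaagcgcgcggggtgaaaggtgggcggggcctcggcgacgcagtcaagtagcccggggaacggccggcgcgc
Asns upstream: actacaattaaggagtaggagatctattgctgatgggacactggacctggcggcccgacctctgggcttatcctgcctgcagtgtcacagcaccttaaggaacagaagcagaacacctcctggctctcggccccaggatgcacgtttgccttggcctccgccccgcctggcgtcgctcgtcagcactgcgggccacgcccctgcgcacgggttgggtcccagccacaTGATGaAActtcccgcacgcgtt

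Total counts ranged from 20134006 to 21178121 in the WT livers and from 19842637 to 22080809 in the *Asgr1*-/- livers. *Asgr1* had 11716 to 15894 counts in the WT livers and 36 to 62 counts in the *Asgr1*-/- livers, which matches the labels. With edgeR's quasi-likelihood test, 30 of the 10167 genes (0.295%) passed both thresholds of a call (adjusted p below 0.05, fold change beyond 1.5), 14 higher and 16 lower in *Asgr1*-/- mice, and the median log2 fold change over all tested genes was -0.02. The WT livers differed among themselves in transcripts of other cell types. The 14 Kupffer cell and macrophage markers summed to 102, 280 and 923 CPM (counts scaled to a fixed TMM-adjusted library total) in WT livers 1, 2 and 3, and to 362, 287 and 227 CPM in *Asgr1*-/- livers 1, 2 and 3. WT liver 3 was therefore at the top and WT liver 1 at the bottom of this range. Hepatocyte identity was clear in every library, with 8 hepatocyte markers summing to 79029 CPM or more.

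As mRNA levels per length, the chaperones held most of the highest values of the set. *P4hb*, the gene of protein disulfide isomerase, led with an FPKM of 584 ± 35.0 (SD, n = 3) in WT and 656 ± 4.68 (SD, n = 3) in *Asgr1*-/- livers. *Herpud1*, an ER membrane protein that organizes the ERAD complex, followed at 197 ± 19.1 and 236 ± 41.6 (SD, n = 3 each), with *Hsp90b1* (GRP94, the ER form of HSP90) at 188 ± 35.6 and 241 ± 20.5 and *Hspa5* (BiP) at 157 ± 26.8 and 199 ± 28.9. *Herpud1* and *Hsp90b1* were closer to each other than their spread in both genotypes, as were *Pdia4* and *Pdia6*, both at a mean FPKM of 123 over the 6 livers.

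At the other end of the order, the PERK gene *Eif2ak3* had a mean FPKM of 1.58 and the oxidase gene *Ero1l* of 1.52, neighbors that did not differ beyond their spread. *Asns*, the gene of asparagine synthetase, stood at 1.42 and *Chac1*, an enzyme that breaks down glutathione, at 0.647. *Atf4* mRNA, with an FPKM of 66.5 ± 2.59 in WT and 62.9 ± 8.56 in *Asgr1*-/- livers (SD, n = 3 each), was close to *Xbp1* mRNA at 62.0 ± 8.47 and 70.3 ± 1.04. Its protein is controlled at translation, and active XBP1 needs mRNA splicing, so gene counts do not read the activity of either factor.

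**Figure D1:**
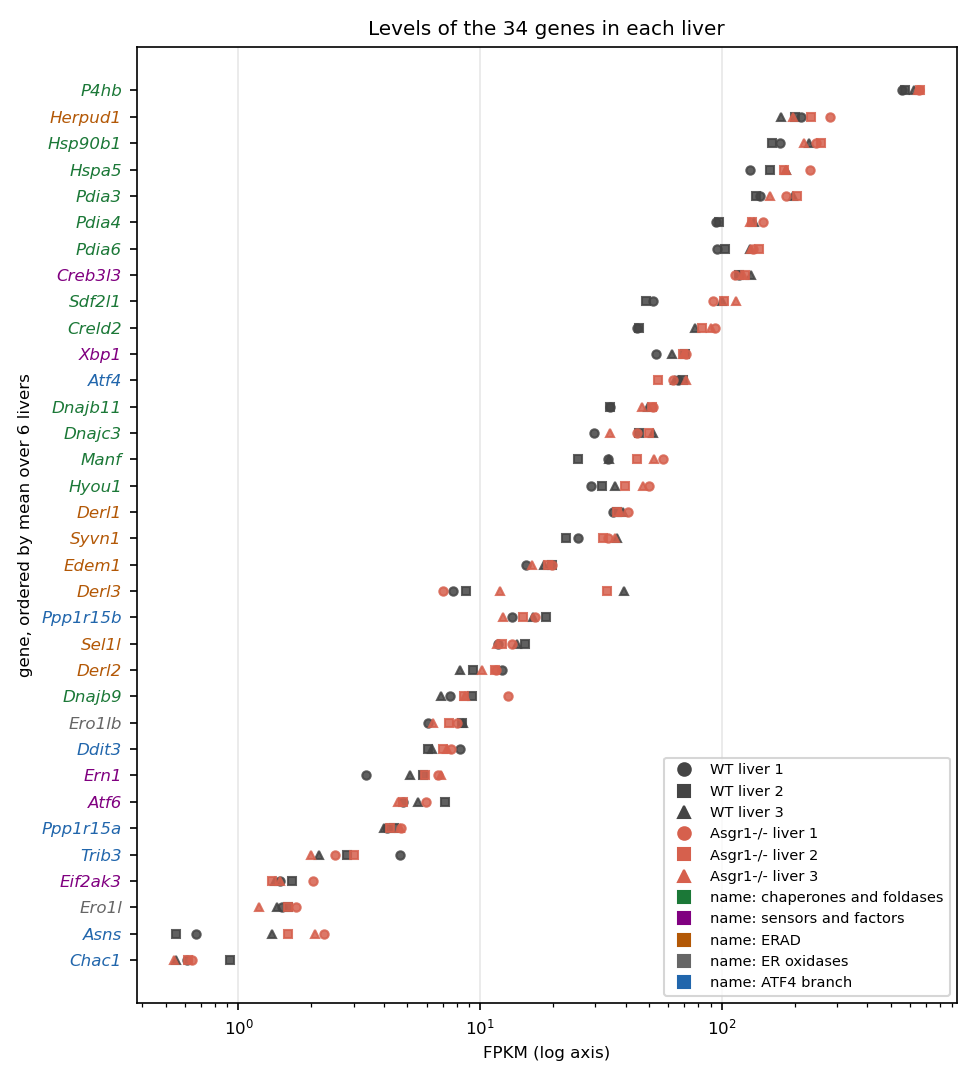
FPKM of the 34 genes in each liver on a log axis, ordered by the mean over the 6 livers, with 1 symbol per mouse (WT dark, *Asgr1*-/- red) and gene names colored by role. *P4hb* is at the top with a mean FPKM of 620, *Asns* and *Chac1* are at the bottom with 1.42 and 0.647, and *Derl3* has the widest spread within a genotype.

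Next, the genotypes were compared gene by gene. None of the 33 tested genes was called, against 0.295% of all tested genes, and the lowest adjusted p was 0.0805 (edgeR) for *Manf*. At an unadjusted p under 0.05, 5 of the 33 genes (15.2%) were higher in *Asgr1*-/- livers, beside 7.29% of all tested genes, and 0 were lower, beside 8.2% of all tested genes. The 3 *Asgr1*-/- livers lay above the 3 WT livers without overlap in 5 of the 33 genes, against 10.9% of all tested genes, and below them in 0, against 10.9% likewise. One gene of both counts of 5, *Asns*, passed the filter on low genes only through the *Asgr1*-/- livers, and without it each count was 4 of 32 (12.5%). Log2 fold changes were positive for 22 and negative for 11 genes, with a median of 0.11, whereas 46.7% of all tested genes were positive. In whole liver, fewer cells of a type and less RNA per cell cannot be told apart.

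The count of calls depended on the tool, the filter on low genes and WT liver 3. DESeq2 called 3 of the genes (*Manf*, *Creld2* and *Asns*), limma on log2(FPKM + 0.1) called 0, and edgeR called 4 (*Manf*, *Creld2*, *Sdf2l1* and *Asns*) both without the filter and without WT liver 3, all of them higher in *Asgr1*-/- livers. Leaving out any other single liver gave 0 calls with edgeR. Each fit that called genes of the set also called more of all genes than the main fit did. Without WT liver 3 these were 288, against 30 with all livers. *Asns*, which passed the filter of the main fit only through the *Asgr1*-/- livers, is part of each of these counts of members.

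Among the 13 chaperones and foldases, 12 had a positive log2 fold change and 1 a negative one, with a median of 0.29 and a range from -0.03 to 0.67, beside the median of -0.02 over all tested genes. By the test, 0 rose and 0 fell. The 4 genes with an unadjusted p under 0.05 were *Manf*, *Hyou1*, *Creld2* and *Sdf2l1*, which encode soluble proteins of the ER lumen.

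*Manf* (ENSMUSG00000032575, chr9:106838312-106891979, minus strand) encodes a small ER protein that binds BiP and can be secreted. Its level was 123, 93.0 and 123 CPM in WT livers 1, 2 and 3, and 197, 156 and 186 CPM in *Asgr1*-/- livers 1, 2 and 3. All *Asgr1*-/- livers were above all WT livers, and no library stood apart within its genotype. The log2 fold change was 0.67 (95% interval 0.35 to 0.99, unadjusted p = 0.00103, adjusted p = 0.0805 from edgeR), a 1.59-fold difference. It lay between 0.55 and 0.77 when single livers were left out, where adjusted p ran from 0.0418 (without WT liver 3) to 0.300 (without *Asgr1*-/- liver 1). Over all alternatives, adjusted p ran from 0.000304 (edgeR without the filter) to 0.300.

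*Hyou1* (ENSMUSG00000032115, chr9:44379490-44392369, plus strand) encodes GRP170, a large chaperone that also exchanges the nucleotide of BiP. It measured 216, 240 and 267 CPM in WT livers 1, 2 and 3, against 355, 286 and 341 CPM in *Asgr1*-/- livers 1, 2 and 3. The groups again did not overlap, although *Asgr1*-/- liver 2 came close to WT liver 3. The log2 fold change was 0.44 (95% interval 0.16 to 0.73, unadjusted p = 0.00647, adjusted p = 0.160 from edgeR), and adjusted p over the alternatives was 0.0381 (DESeq2) to 0.429.

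*Creld2* (ENSMUSG00000023272, chr15:88819646-88826683, plus strand), an ER protein related to disulfide isomerases, was at 63.3, 64.7 and 108 CPM in WT livers 1, 2 and 3. In *Asgr1*-/- livers 1, 2 and 3 it was at 126, 112 and 124 CPM. WT livers 1 and 2 were far below the *Asgr1*-/- livers, whereas WT liver 3 was only slightly below them. The log2 fold change was 0.62 (95% interval 0.18 to 1.06, adjusted p = 0.184 from edgeR) with all livers. Without WT liver 3 it was 0.91 (adjusted p = 0.0045 from edgeR), and without WT liver 1 it was 0.49. Adjusted p over the alternatives was 0.00156 (no filter) to 0.443 (without *Asgr1*-/- liver 3).

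*Sdf2l1* (ENSMUSG00000022769, chr16:17130138-17132383, minus strand) encodes a partner of the BiP cochaperone ERdj3. Its values were 59.5, 56.3 and 113 CPM in WT livers 1, 2 and 3, against 99.6, 113 and 127 CPM in *Asgr1*-/- livers 1, 2 and 3. Here WT liver 3 fell within the *Asgr1*-/- range, so the groups overlapped. The log2 fold change was 0.57 (95% interval 0.02 to 1.12, adjusted p = 0.306 from edgeR). Without WT liver 3 it was 0.97 (adjusted p = 0.0069 from edgeR), and without WT liver 2 it was 0.40. Over the alternatives, adjusted p was 0.00647 (no filter) to 0.633 (without *Asgr1*-/- liver 3).

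The abundant chaperones had smaller differences. *Hspa5* was at 572, 694 and 792 CPM in WT livers 1, 2 and 3 and at 964, 762 and 783 CPM in *Asgr1*-/- livers 1, 2 and 3. WT liver 3 was above 2 of the *Asgr1*-/- livers, and the log2 fold change of 0.29 (95% interval -0.05 to 0.62, adjusted p = 0.398 from edgeR) did not pass. It was 0.17 without WT liver 1 and 0.40 without WT liver 3. *Hsp90b1* measured 725, 681 and 938 CPM in WT livers 1, 2 and 3, against 970, 1035 and 882 CPM in *Asgr1*-/- livers 1, 2 and 3, again with WT liver 3 inside the range of the other genotype. Its log2 fold change was 0.30 (95% interval -0.02 to 0.62, adjusted p = 0.350 from edgeR). Without WT liver 3 it was 0.45, and without WT liver 2 it was 0.21.

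The disulfide isomerases *Pdia4*, *Pdia6* and *Pdia3* had log2 fold changes of 0.28, 0.26 and 0.14, and *Dnajb11* and *Dnajb9*, cochaperones of BiP, each had 0.29. Without WT liver 3, *Pdia4*, *Pdia6*, *Pdia3* and *Dnajb11* had 0.45, 0.39, 0.31 and 0.48. Without WT liver 1, *Pdia4* and *Pdia6* had 0.19 and 0.17, and without WT liver 2, *Pdia3* and *Dnajb11* had 0.054 and 0.21. *Dnajb9* had 0.083 without *Asgr1*-/- liver 1. *P4hb* was at 1644, 1713 and 1812 CPM in WT livers 1, 2 and 3 and at 1841, 1877 and 1868 CPM in *Asgr1*-/- livers 1, 2 and 3. It did not overlap between the genotypes, but its log2 fold change was only 0.11 (95% interval -0.12 to 0.35, adjusted p = 0.647 from edgeR). *Dnajc3*, a cochaperone of BiP also known as an inhibitor of PERK, was the negative member at -0.03. Its 95% interval ran from -0.49 to 0.43 and its sign turned with other scalings and without single livers.

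**Figure D2:**
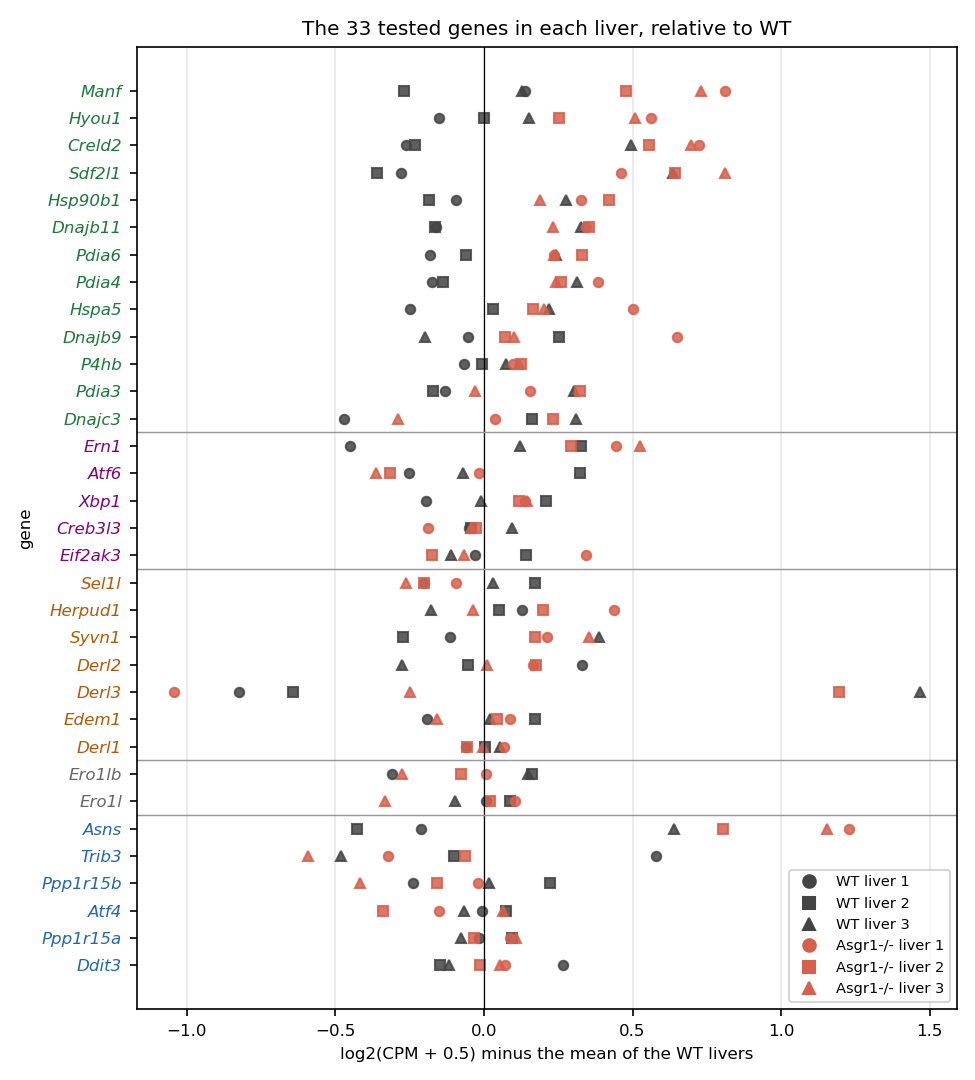
Level of each of the 33 tested genes in each liver as log2(CPM + 0.5) minus the mean of the 3 WT livers, grouped by role in the order chaperones, sensors, ERAD, oxidases and ATF4 branch. For *Manf*, *Hyou1*, *Creld2*, *P4hb* and *Asns* the 3 red symbols lie to the right of the 3 dark ones, and for many chaperones the dark triangle of WT liver 3 lies among the red symbols.

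WT liver 3 recurred in this list. It was the highest WT liver in 11 of the 13 chaperones and at or above the lowest *Asgr1*-/- liver in 8 of them, while WT livers 1 and 2 were both below every *Asgr1*-/- liver in 11 of the 13. Over all 33 genes these counts were 16, 21 and 13. Among all 10167 tested genes the same 3 patterns held in 31.1%, 70.3% and 18.3%, against 84.6%, 61.5% and 84.6% of the chaperones. This was set side by side with the values known and was not tested. Summed over the 13 genes, chaperone mRNA was 4770, 5025 and 6059 CPM in WT livers 1, 2 and 3, against 6383, 6270 and 5974 CPM in *Asgr1*-/- livers 1, 2 and 3. The means were 5284 ± 683 and 6209 ± 211 CPM (SD, n = 3 each), and WT liver 3 exceeded *Asgr1*-/- liver 3.

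Markers of other cell types were set beside these levels, and their part in them was not tested. The Kupffer cell markers were highest in WT liver 3. All 13 that were tested had negative log2 fold changes, with a median of -0.62, but 0 passed and their sums overlapped between the genotypes. Their median log2 level relative to the WT mean was -1.48, -0.11 and 1.61 in WT livers 1, 2 and 3. In *Asgr1*-/- livers 1, 2 and 3 it was 0.34, -0.07 and -0.39, and the genotype means of these medians differed by -0.05. The 12 endothelial markers summed to 309, 371 and 558 CPM in WT livers 1, 2 and 3, against 340 to 443 CPM in *Asgr1*-/- livers, and the 10 stellate cell markers to 226, 257 and 393 CPM and 282 to 319 CPM. The 6 cholangiocyte markers did not share a pattern. *Krt19* and *Epcam* were low in WT livers 1 and 2 and high in the other 4 livers. *Spp1*, the most abundant of the 6, was lowest in WT liver 3, and *Krt7* was nearly equal in WT livers 2 and 3. Of the 6, *Krt19*, *Epcam* and *Spp1* were tested and 0 passed. The median log2 level of those 3, relative to the WT mean, was -0.75, -0.04 and 1.16 in WT livers 1, 2 and 3, against 1.24 to 1.44 in *Asgr1*-/- livers. All 6 summed to 39.3, 39.6 and 52.4 CPM in WT livers 1, 2 and 3, against 51.8, 59.8 and 65.0 CPM in *Asgr1*-/- livers 1, 2 and 3. The 8 hepatocyte markers summed to 89408 to 98804 CPM in WT and 79029 to 84674 CPM in *Asgr1*-/- livers, without overlap and with 0 passing. Most of that sum was *Alb*, at 61065 to 70896 CPM in WT and 49640 to 58162 CPM in *Asgr1*-/- livers. Of the 8, 6 had negative and 2 positive log2 fold changes. Below WT without overlap lay 2 of them, beside 10.9% of all tested genes. Of 10 pancreatic acinar markers, 7 were at 0 in every liver. The 7 genes of cell stress overlapped in their sum, from 98.8 to 168 CPM in WT and 126 to 133 CPM in *Asgr1*-/- livers. Of these 7, 4 were tested and 0 passed. One of them, the heat shock gene *Hspa1b*, did not overlap, at 6.68, 11.2 and 14.1 CPM in WT against 5.50, 5.87 and 6.19 CPM in *Asgr1*-/- livers (log2 fold change -0.87, adjusted p = 0.169 from edgeR). Another, *Jun*, went the other way and overlapped, at 13.0, 18.5 and 15.4 CPM in WT against 22.9, 17.3 and 22.6 CPM in *Asgr1*-/- livers (log2 fold change 0.42, adjusted p = 0.284 from edgeR).

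Spread within a genotype was larger in WT. The coefficient of variation of the CPM was larger among WT than among *Asgr1*-/- livers in 11 of the 13 chaperones (84.6%) and 25 of the 33 genes (75.8%), and in 66.1% of all tested genes. Its median over the chaperones was 17.6% in WT and 11.2% in *Asgr1*-/- livers.

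The sensors and transcription factors had 3 positive and 2 negative log2 fold changes with a median of 0.05, and 0 rose, 0 fell and 0 separated the genotypes. *Ern1*, which encodes the sensor IRE1α, was at 28.5, 49.3 and 42.7 CPM in WT livers 1, 2 and 3 and at 53.5, 48.2 and 56.6 CPM in *Asgr1*-/- livers 1, 2 and 3. WT liver 1 was low and WT liver 2 lay within the other range, and the log2 fold change was 0.39 (95% interval -0.02 to 0.81, adjusted p = 0.345 from edgeR). It was 0.20 without WT liver 1 and 0.57 without WT liver 2. *Xbp1*, whose mRNA IRE1α splices, was at 180, 238 and 205 CPM in WT livers 1, 2 and 3 and at 227, 224 and 228 CPM in *Asgr1*-/- livers 1, 2 and 3, a nearly constant level within the wider WT range. Its log2 fold change was 0.12 (95% interval -0.15 to 0.40, adjusted p = 0.659 from edgeR), 0.032 without WT liver 1 and 0.24 without WT liver 2, and a gene count sums the spliced and unspliced forms.

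*Atf6* went the other way in value, at 45.9, 68.6 and 52.0 CPM in WT livers 1, 2 and 3, against 54.1, 43.9 and 42.5 CPM in *Asgr1*-/- livers 1, 2 and 3. The ranges overlapped, and the log2 fold change was -0.25 (95% interval -0.62 to 0.13, adjusted p = 0.513 from edgeR), or -0.065 without WT liver 2. *Creb3l3*, a liver-enriched membrane-bound factor of the same cleavage pathway that is known for lipid genes in fasting, was at -0.09 with a 95% interval from -0.32 to 0.15. *Eif2ak3* was at 0.05, with an interval from -0.36 to 0.46 and a sign that turned when WT liver 3 or *Asgr1*-/- liver 1 was left out.

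For ERAD, which returns misfolded proteins to the cytosol for degradation, 4 genes had positive and 3 had negative log2 fold changes, with a median of 0.0032, and 0 rose or fell. *Sel1l*, the scaffold of the ubiquitin ligase HRD1, was at 105, 137 and 124 CPM in WT livers 1, 2 and 3 and at 113, 105 and 101 CPM in *Asgr1*-/- livers 1, 2 and 3, and its log2 fold change was -0.19 (95% interval -0.47 to 0.08, adjusted p = 0.477 from edgeR). *Syvn1*, the ligase itself, was at 128, 115 and 181 CPM in WT livers 1, 2 and 3 and at 161, 156 and 177 CPM in *Asgr1*-/- livers 1, 2 and 3. Here WT liver 3 was the highest of all, and the log2 fold change was 0.22 (95% interval -0.15 to 0.59, adjusted p = 0.553 from edgeR). It was 0.44 without WT liver 3 and 0.091 without WT liver 2. So the scaffold and the enzyme of the same complex had values of opposite sign, neither past the test.

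*Herpud1*, whose window holds an ERSE-II as well as a CARE, was at 515, 489 and 417 CPM in WT livers 1, 2 and 3 and at 638, 541 and 460 CPM in *Asgr1*-/- livers 1, 2 and 3. It was lowest in WT liver 3, unlike most chaperones, and its log2 fold change was 0.21 (95% interval -0.12 to 0.53, adjusted p = 0.529 from edgeR), or 0.086 without *Asgr1*-/- liver 1. *Derl1*, *Derl2* and *Edem1*, which help to move or select ERAD substrates, lay between -0.01 and 0.10.

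*Derl3*, a derlin typical of secretory cells, was singled out after its values were seen because it was the most variable gene of the set. It was at 16.0, 18.2 and 80.1 CPM in WT livers 1, 2 and 3 and at 13.7, 66.3 and 24.1 CPM in *Asgr1*-/- livers 1, 2 and 3, so that 1 liver of each genotype was several times above the others. Its log2 fold change was -0.14 with a 95% interval from -1.66 to 1.39, was 1.02 without WT liver 3 and was -1.005 without *Asgr1*-/- liver 2. The 11 B cell and plasma cell markers, secretory cells among them, summed to 42.1, 25.9 and 57.5 CPM in WT livers 1, 2 and 3. In *Asgr1*-/- livers 1, 2 and 3 they summed to 25.3, 31.6 and 26.0 CPM. WT liver 3 and *Asgr1*-/- liver 2 were the highest of each genotype. WT liver 1 was above *Asgr1*-/- liver 2 in these markers but far below it in *Derl3*. The part of the markers in *Derl3* was not tested. Of the 4 of these markers that were tested, 1 fell, the immunoglobulin heavy chain gene *Ighm*, from 13.3, 9.98 and 21.3 CPM in WT to 3.46, 3.26 and 2.67 CPM in *Asgr1*-/- livers (log2 fold change -2.24, adjusted p = 0.0215 from edgeR). That call was lost with limma and without any single *Asgr1*-/- liver, with adjusted p up to 0.134 over the alternatives. Another tested marker, *Igha*, went the other way without overlap, at 6.68, 4.13 and 10.4 CPM in WT and 10.8, 13.5 and 11.1 CPM in *Asgr1*-/- livers. Its log2 fold change was 0.74 (adjusted p = 0.267 from edgeR), and *Igkc* and *Jchain* had -0.71 and -0.27 and did not pass.

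The ER oxidases, which pass oxidizing equivalents to disulfide isomerases, had negative values that did not pass. *Ero1lb* (ERO1β) was at 41.8, 58.1 and 57.6 CPM in WT livers 1, 2 and 3 and at 52.2, 49.2 and 42.8 CPM in *Asgr1*-/- livers 1, 2 and 3, and its log2 fold change was -0.13 (adjusted p = 0.724 from edgeR), or -0.27 without WT liver 1. *Ero1l* (ERO1α) was at 8.33, 8.85 and 7.72 CPM in WT livers 1, 2 and 3 and at 8.96, 8.42 and 6.49 CPM in *Asgr1*-/- livers 1, 2 and 3, with -0.06 (adjusted p = 0.900 from edgeR). In both genes the genotypes overlapped.

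**Figure D3:**
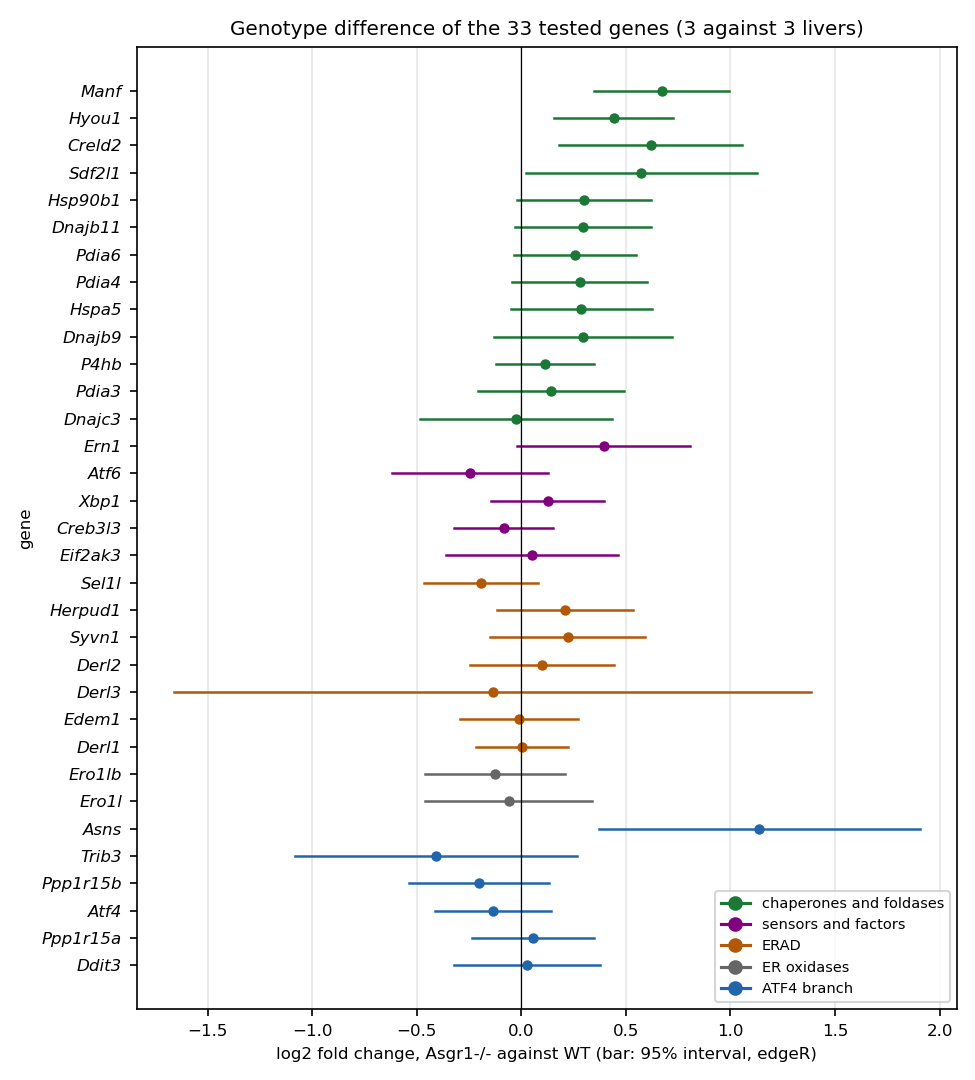
Log2 fold change of the 33 tested genes (*Asgr1*-/- against WT, 3 against 3 livers) with 95% intervals from edgeR, colored by role. The intervals of *Manf*, *Hyou1*, *Creld2*, *Sdf2l1* and *Asns* do not include 0 before adjustment, and that of *Derl3* runs from -1.66 to 1.39.

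Of the 7 genes of the ATF4 branch, 6 were tested, 3 with positive and 3 with negative values, a median of -0.05 and a range from -0.41 to 1.14. By the test, 0 rose and 0 fell. *Asns* (ENSMUSG00000029752, chr6:7675169-7693254, minus strand) had counts of 37, 32 and 76 in WT livers 1, 2 and 3 and of 136, 87 and 115 in *Asgr1*-/- livers 1, 2 and 3, or 1.90, 1.57 and 3.84 CPM against 6.03, 4.36 and 5.69 CPM. The groups did not overlap, with WT liver 3 nearest to the *Asgr1*-/- livers. The log2 fold change was 1.14 (95% interval 0.37 to 1.91, unadjusted p = 0.00838, adjusted p = 0.172 from edgeR). Without WT liver 3 it was 1.62 (adjusted p = 0.0170 from edgeR), and without WT liver 2 it was 0.90. Adjusted p over the alternatives was 0.00887 (no filter) to 0.434 (without *Asgr1*-/- liver 3). The mean FPKM of *Asns* was 0.867 in WT and 1.97 in *Asgr1*-/- livers, so it passed the filter only through the *Asgr1*-/- livers.

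The other genes of this branch did not share that pattern. *Trib3*, a pseudokinase that restrains ATF4 signaling, was at 10.2, 6.20 and 4.65 CPM in WT livers 1, 2 and 3 and at 5.23, 6.37 and 4.26 CPM in *Asgr1*-/- livers 1, 2 and 3. WT liver 1 was the high sample, and the log2 fold change was -0.41 (95% interval -1.08 to 0.26, adjusted p = 0.545 from edgeR). It was -0.037 without WT liver 1 and -0.63 without WT liver 3. *Ppp1r15b*, the constitutive regulator of eIF2α dephosphorylation, was at 78.8, 109 and 94.4 CPM in WT livers 1, 2 and 3 and at 92.0, 83.5 and 69.7 CPM in *Asgr1*-/- livers 1, 2 and 3, with -0.20 (95% interval -0.54 to 0.13, adjusted p = 0.546 from edgeR), or -0.31 without WT liver 1. *Atf4* itself was at -0.13, its target *Ppp1r15a*, the induced partner of *Ppp1r15b*, at 0.06 and *Ddit3*, the gene of CHOP, at 0.03. *Chac1*, which was not tested, had counts of 20, 32 and 18 in WT livers 1, 2 and 3 and of 23, 20 and 18 in *Asgr1*-/- livers 1, 2 and 3.

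Finally, both branches were set side by side in each liver, as the median over the tested genes of the log2 level relative to the WT mean. For the 13 chaperones this median was -0.16, -0.14 and 0.28 in WT livers 1, 2 and 3, against 0.38, 0.32 and 0.23 in *Asgr1*-/- livers 1, 2 and 3. For the 6 genes of the ATF4 branch it was -0.01, -0.01 and -0.07 in WT livers 1, 2 and 3, against 0.03, -0.05 and 0.06 in *Asgr1*-/- livers 1, 2 and 3. The chaperone median thus varied among WT livers over a wider range than the difference of the genotype means, 0.32. The median of the ATF4 branch stayed between -0.07 and 0.06 in every liver. Summed over all 7 genes, ATF4 branch mRNA was 280, 313 and 281 CPM in WT livers 1, 2 and 3, against 276, 247 and 276 CPM in *Asgr1*-/- livers 1, 2 and 3.

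The difference of the 2 medians, chaperones minus ATF4 branch, was -0.15, -0.12 and 0.35 in WT livers 1, 2 and 3, against 0.36, 0.37 and 0.17 in *Asgr1*-/- livers 1, 2 and 3. It averaged 0.03 ± 0.28 in WT and 0.30 ± 0.11 in *Asgr1*-/- livers (SD, n = 3 each), so *Asgr1*-/- exceeded WT by 0.27, less than the SD among WT livers. Without WT liver 3 the excess was 0.48, and without WT liver 1 it was 0.18. No test was run on these medians because the genes were chosen with results of these livers known.

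**Figure D4:**
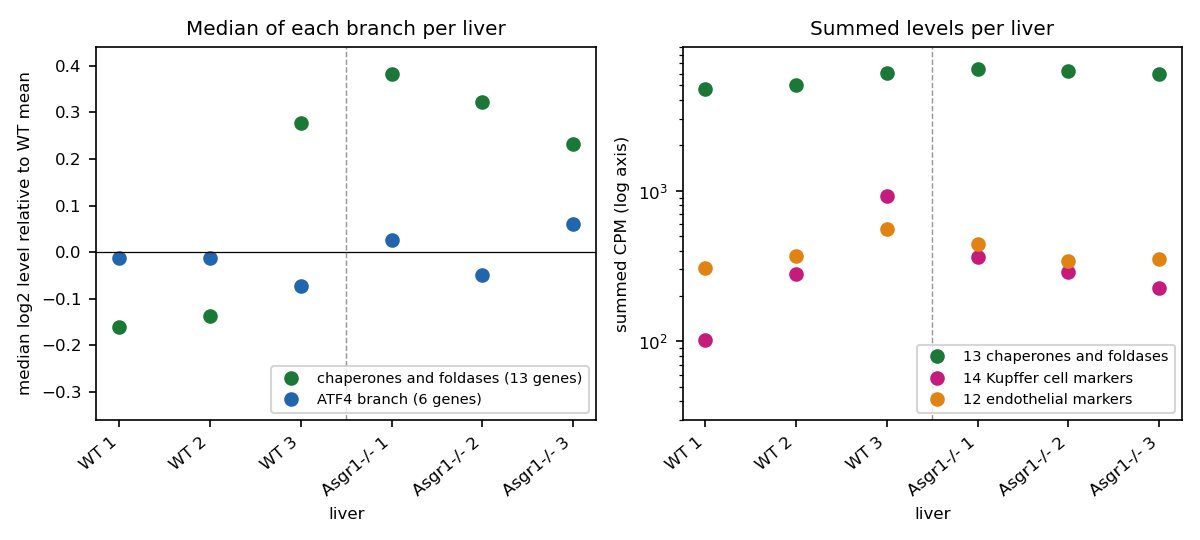
Left, median log2 level relative to the WT mean of the 13 chaperones (green) and the 6 tested ATF4 branch genes (blue) in each liver. Right, summed CPM of the 13 chaperones, 14 Kupffer cell markers and 12 endothelial markers on a log axis, where WT liver 3 is the highest WT liver in each of the 3 lists and the highest of all livers in both marker lists.

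**Figure D5:**
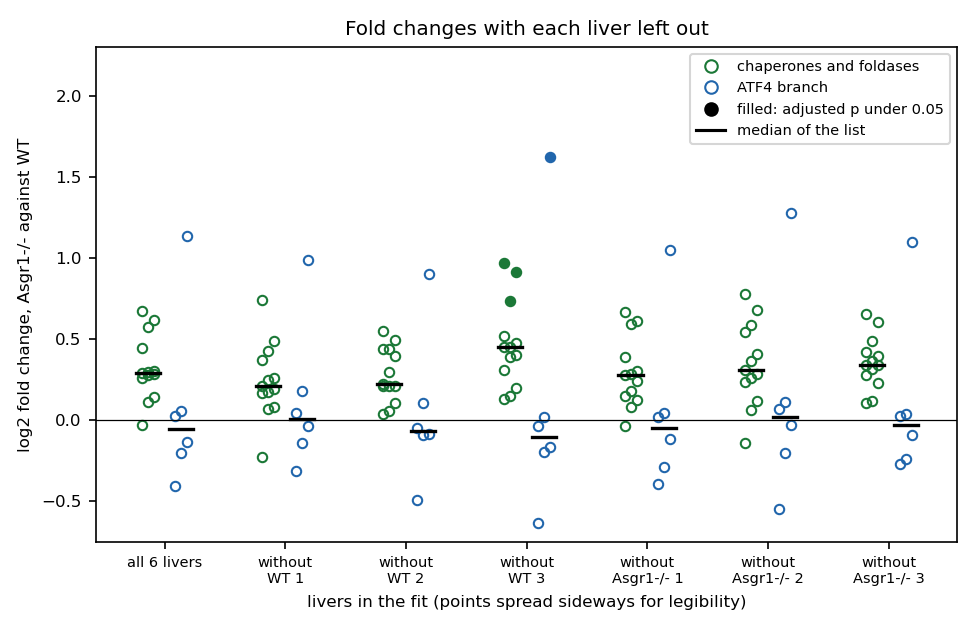
Log2 fold changes of the 13 chaperones (green) and the 6 tested ATF4 branch genes (blue) from edgeR with all 6 livers and with each liver left out; bars are list medians and filled symbols have an adjusted p under 0.05. The chaperone median is 0.29 with all livers, 0.21 without WT liver 1 and 0.45 without WT liver 3, the only fit here with filled symbols.

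Related genes outside the set were counted in 6 lists. Of 118 such genes, 105 were tested, 0 rose and 1 fell. The log2 fold changes were positive for 72 and negative for 33, with a median of 0.11. Without overlap, 27 (25.7%) lay above WT and 7 below it, beside 10.9% of all tested genes each way. Those above WT included 7 aminoacyl-tRNA synthetases, described below. These lists were chosen with results of these livers known, so the shares are no test. The translocon and signal peptide genes, which bring nascent proteins into the ER, had 15 positive values of 16 tested and a median of 0.18. Among them *Ssr2*, a subunit of the translocon-associated complex, had 0.32 (adjusted p = 0.205 from edgeR) and the signal recognition particle receptor gene *Srprb* had 0.44 (adjusted p = 0.216 from edgeR). The genes of N-glycan transfer and lectin chaperones had 10 positive values of 12 and a median of 0.16. There the glucosidase gene *Mogs* was at 41.5, 52.5 and 59.9 CPM in WT livers 1, 2 and 3 and at 80.7, 77.2 and 78.4 CPM in *Asgr1*-/- livers 1, 2 and 3, with 0.62 (adjusted p = 0.0900 from edgeR), and calreticulin (*Calr*) had 0.46 (adjusted p = 0.203 from edgeR).

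Further ER folding and ERAD genes had 21 positive values of 31 and a median of 0.11. Of the 31, 5 lay above WT and 2 below it without overlap, beside 10.9% of all tested genes each way. *Ubxn4*, an ER adaptor of the segregase VCP, had 0.43 (adjusted p = 0.0900 from edgeR), and the prolyl isomerase gene *Fkbp11* had 0.67 (adjusted p = 0.152 from edgeR). For the eIF2α kinases and their partners, 6 of 10 values were positive, with a median of 0.05, and the translation factor genes *Eif2b3* and *Eif2b4* had 0.50 and 0.22 (adjusted p = 0.169 and 0.339 from edgeR).

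A wider list of ATF4 targets and amino acid response genes had 27 of 38 members tested, 17 positive and 10 negative, with a median of 0.11 and 0 called. Of the 27, 9 lay above WT and 2 below it without overlap, beside 10.9% of all tested genes each way. The factor gene *Cebpb*, a partner of ATF4 at CARE sites, was at 126, 124 and 261 CPM in WT livers 1, 2 and 3 and at 338, 273 and 332 CPM in *Asgr1*-/- livers 1, 2 and 3. Its WT liver 3 was again nearest to the other genotype, and its log2 fold change was 0.88 (adjusted p = 0.173 from edgeR). Without WT liver 3 it was 1.33 (adjusted p = 0.00101 from edgeR), and the lowest value with a single liver left out was 0.70. Adjusted p over the alternatives ran from 2.47e-06 (no filter) to 0.441. *Atf5* had 0.39 (adjusted p = 0.218 from edgeR). The 12 cytosolic aminoacyl-tRNA synthetases of this list, which load amino acids onto tRNA, had 11 positive values, a median of 0.24 and 7 genes above WT without overlap, beside 10.9% of all tested genes, with 0 called. They were grouped after their values were seen, so this count supports nothing.

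The targets of CREB3L3 had 3 positive and 7 negative values of 10, with a median of -0.21. This list held the gene that fell, the desaturase gene *Fads2*, which is also a target of SREBP-1. It was at 696, 633 and 644 CPM in WT livers 1, 2 and 3 and at 357, 344 and 399 CPM in *Asgr1*-/- livers 1, 2 and 3, with groups far apart. The log2 fold change was -0.84 (standard error 0.110, adjusted p = 0.0215 from edgeR), and adjusted p was 0.0550 with limma on log2(FPKM + 0.1) and lay above 0.05 without WT liver 2 or any single *Asgr1*-/- liver (0.0733 to 0.148).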

How the data were processed

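Livers of 3 WT and 3 *Asgr1*-/- mice were profiled by RNA-Seq. The deposited counts are raw reads per gene, whole numbers made by the authors' provider, GENEWIZ, and the deposited FPKM equal these counts scaled by exonic gene size and library total, within 0.005. The submitters' notes name GRCm38 and DESeq2 1.6.3. For the aligner, the counting tool and the strand setting, nothing is given in the sources used here. The exonic gene size that the authors deposited was used directly for this comparison and for the simulated data. Through the deposited FPKM it also entered the filter on low genes, the levels per length and the limma fits.

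Counts of genes whose mean FPKM reached 1 were fitted with edgeR 4.0.16 (quasi-likelihood test, TMM, two-sided, all 6 livers, no covariate), and p values were adjusted over all 10167 genes by the Benjamini-Hochberg method. Calls needed a fold change beyond 1.5 and an adjusted p below 0.05, as in the study. CPM use TMM-scaled library sizes, and log2 levels use a pseudocount of 0.5. Exact permutation of 3 against 3 was not used for single genes. The p values weigh each difference against the spread between these mice, which edgeR moderates with values of other genes. Without the filter, the standard error of *Derl3* was 0.213, against 0.677 with it, and that of *Sdf2l1* was 0.146, against 0.245. The low adjusted p values without the filter thus do not rest on the spread of each gene alone. The fit was tested on simulated data.

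The members and lists were chosen with earlier results of these data known. Each member is accounted for. Values per liver are given for genes with an unadjusted p under 0.05 and for the 3 genes with the smallest p in each role. Of each related list, the called genes, else the 2 with the smallest p, are named. Values of *Hspa5*, *Hsp90b1*, *P4hb* and *Derl3* were added after they were seen. Single genes of the marker lists, such as *Hspa1b*, *Jun*, *Krt19*, *Epcam*, *Ighm* and *Igha*, were not named by these rules either. *Ddit3* has a second entry of 105 bases at 0 counts in every liver, which was left out. Alternatives were other size factors (DESeq2 median of ratios, library totals), no filter, a mean FPKM of at least 5, DESeq2 1.42.0, limma 3.58.1 on log2(FPKM + 0.1) and log2(FPKM + 1), robust estimation, a replicate block and leaving out each liver. Other software was R 4.3.3 and Python 3.11.15. Columns of gene ontology terms were not used here.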

Additional observations from a re-analysis of the deposited data

How the results depend on the processing

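The 33 tested genes had 0 calls with edgeR, median-of-ratios size factors, library totals, limma, robust estimation and the replicate block, as did the 28 left at a mean FPKM of at least 5. The 34 tested without a filter had 4 calls. The 33 had 3 with DESeq2 (4 at an adjusted p under 0.05 alone) and 0 to 4 when single livers were left out, where the 4 came without WT liver 3. Over all genes, the 30 calls among 10167 became 465 among 24757 without a filter and 12 at a mean FPKM of at least 5. They were 248 with DESeq2, 11 and 16 with limma at pseudocounts of 0.1 and 1, and 80 with robust estimation. Without single livers they were 3 to 288, the 288 without WT liver 3. The cause was not tested.

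The chaperone median of 0.29 was 0.21 to 0.45 without single livers and kept its sign throughout. The ATF4 median of -0.05 was 0.00058 with library totals, -0.12 without a filter, -0.16 at a mean FPKM of at least 5, 0.0026 and -0.0026 with limma at pseudocounts of 0.1 and 1, and -0.10 to 0.019 without single livers, so its sign is not set by these data. The excess of the chaperone over the ATF4 median was 0.18 to 0.48 without single livers.

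Signs turned only for genes near 0 and for *Derl3*. *Dnajc3* was 0.025, 0.049 and 0.047 and *Edem1* 0.044, 0.047 and 0.045 with library totals and limma at pseudocounts of 0.1 and 1. *Derl1* was -0.018 at a mean FPKM of at least 5, and *Derl3* was 0.022 and 0.017 in the limma fits. Without single livers the ranges were -0.23 to 0.13 for *Dnajc3*, -0.10 to 0.079 for *Edem1*, -0.026 to 0.045 for *Derl1*, -0.032 to 0.28 for *Derl2*, -1.005 to 1.02 for *Derl3*, -0.12 to 0.17 for *Eif2ak3*, -0.051 to 0.18 for *Ddit3* and -0.15 to 0.074 for *Ero1l*.

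The replicate numbers were not treated as pairs, since the deviations of same-numbered livers correlated at -0.168, 0.0241 and -0.0341. With the replicate block 23 genes and 0 of the 33 were called, the lowest adjusted p was 0.0685 (*Manf*), the chaperone median was 0.30 and the ATF4 median -0.05, and *Fads2* lost its call (adjusted p = 0.0546 from edgeR). With 3 livers a genotype, differences of the size seen in most chaperones were within the error of the fit. *Asns* and *Chac1* rest on 18 to 136 counts a liver.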
